A study of Mus musculus with 8 samples.

Results

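The annexin genes *Anxa1*, *Anxa2*, *Anxa3*, *Anxa4*, *Anxa5*, *Anxa6*, *Anxa7*, *Anxa8*, *Anxa11* and *Anxa13* were examined in tissue of male C57BL/6J mice labelled brown adipose tissue (BAT). The 4 control (Co) mice had received saline and the 4 Pg mice sonicated *Porphyromonas gingivalis*, 100 μL into a vein, and all were 12 weeks old. The tissue was taken 18 h later, and the dose was 100000000 CFU by the methods (printed as 108 CFU in the sample labels). RNA of every mouse was measured on an Agilent one-color array of its own. The 10 genes were chosen by name, as all spots that are not controls and carry one of these gene names, from a family whose Pg and Co values were already known, among 37074 gene names on the array. For this reason the difference between Pg and Co is given for them as a description. Their differences, intervals and counts are read from a fit across the whole array and are not offered as tests of these genes. They have 27 probes of 60 bases on 36 spots per array. The array also holds 2 more annexin genes, *Anxa9* and *Anxa10*, which were not among those chosen.

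Annexins are soluble proteins that bind the phosphatidylserine-rich face of membranes when calcium rises. They take part in membrane repair, vesicle traffic, plasminogen activation at the cell surface and the ending of inflammation. Several work in complexes with small calcium sensors of the S100 and EF-hand families. ANXA1 is induced by glucocorticoids and signals to leukocytes through formyl peptide receptors. ANXA13 is known mainly from epithelia such as that of the gut.

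Group and place on the slide cannot be told apart, since the arrays of the Co mice filled row 1 of a single slide and those of the Pg mice row 2. Of 59305 spots, 37423 to 38503 per Co mouse and 33766 to 36719 per Pg mouse were well above background. *Ucp1*, the defining gene of brown fat, was above background in no mouse, and the same held for 3 of the 10 brown adipocyte markers in all. *Cidea* was above background on all 8 arrays, and so were skeletal muscle genes such as *Acta1*, with a mean log2 signal of 18.52. The brown adipocyte marker *Cox8b* was also bright, at 18.00. All 10 general adipocyte markers were tested, with mean log2 signals from 7.06 (*Plin1*) to 16.15 (*Pnpla2*) and 16.32 (*Fabp4*). The sum over 12 muscle markers spanned 20.99 to 21.26 on the log2 scale in Co and 21.09 to 21.25 in Pg mice, a sum set by the brightest of them. Of the 12, 11 were lower in Pg mice (42.3% of all probes were higher), and 1 of them had a q under 0.1 (all probes 7.66%), *Atp2a1* at -0.44 (limma, q = 0.0415). The groups did not overlap for *Atp2a1* and *Ckm*, beside 15.8% of all probes. The share of muscle in the tissue was not tested for its part in the annexin values.

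The probes that the values below turn on are shown first, since a value on an array is the signal of one such sequence. Probes are numbered within a gene from the brightest to the dimmest. Each sequence is written 5′ to 3′ as it is spotted, in the sense of the transcript, with its place in the mm9 build. The first is the *Anxa13* probe that read far higher in some Co mice than in any Pg mouse, and the others are probes in the coding part of members that were tested, none of them a DEG as defined below.
*Anxa13* probe 1 (A_52_P662711), chr15:58173475-58173534, minus strand: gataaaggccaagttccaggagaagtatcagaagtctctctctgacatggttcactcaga
*Anxa1* probe 1 (A_51_P283590), chr19:20448248-20449761, minus strand: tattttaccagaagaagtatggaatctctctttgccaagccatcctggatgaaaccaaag
*Anxa2* probe 2 (A_51_P165342), chr9:69330846-69331620, plus strand: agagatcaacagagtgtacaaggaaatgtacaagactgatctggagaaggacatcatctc
*Anxa3* probe 2 (A_55_P2056325), chr5:97253925-97253984, plus strand: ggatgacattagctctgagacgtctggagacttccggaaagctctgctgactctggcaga
*Anxa4* probe 2 (A_66_P131538), chr6:86691859-86691918, minus strand: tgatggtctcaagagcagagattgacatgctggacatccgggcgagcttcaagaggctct
*Anxa11* probe 2 (A_55_P2084820), chr14:26694168-26694227, plus strand: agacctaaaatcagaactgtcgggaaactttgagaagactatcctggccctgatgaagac

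The *Anxa1* and *Anxa2* probes shown here span 1514 and 775 bases of the genome, so each lies across a splice junction. Although annexins share repeats in their proteins, no run of more than 8 bases was common to any of 320 pairs of probes of different annexin genes in the set. The *Anxa13* probe shared at most 14 bases in a row with any of the 56603 probes of other genes on the array.

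Of the 10 genes, 9 had a probe that was well above background on all 8 arrays, and *Anxa13* was the exception. Of 15 probes on RefSeq mRNAs, 13 exceeded background clearly in 4 or more mice and so entered the comparison. The 2 others were those of *Anxa13*. Of 12 probes on other transcripts, such as cDNA clones and Ensembl models, 6 entered. Of these 27 probes, 4 were above background on no array. The comparison therefore covers 19 probes of 9 genes. Of these, 18 were above background in every mouse, and *Anxa1* probe 3 in 4 mice.

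None of the 19 annexin probes reached the definition of a differentially expressed gene (DEG) in limma, a q under 0.1 with a fold change above 1.5. Over all probes tested, 1.59% did. One probe, of *Anxa3*, had a q under the limit at a smaller fold change (all probes 7.66%) and 1 had an unadjusted p under 0.05 (all probes 22.7%). The groups did not overlap for that probe alone (all probes 15.8%). By the brightest probe, 7 of the 9 genes were higher in Pg mice, against 42.3% of all probes. The median difference of these 9 probes was 0.15 on the log2 scale, and that of all 33815 probes was -0.04. As the contrast was known when the genes were chosen, nothing is read from these counts.

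**Figure D1:**
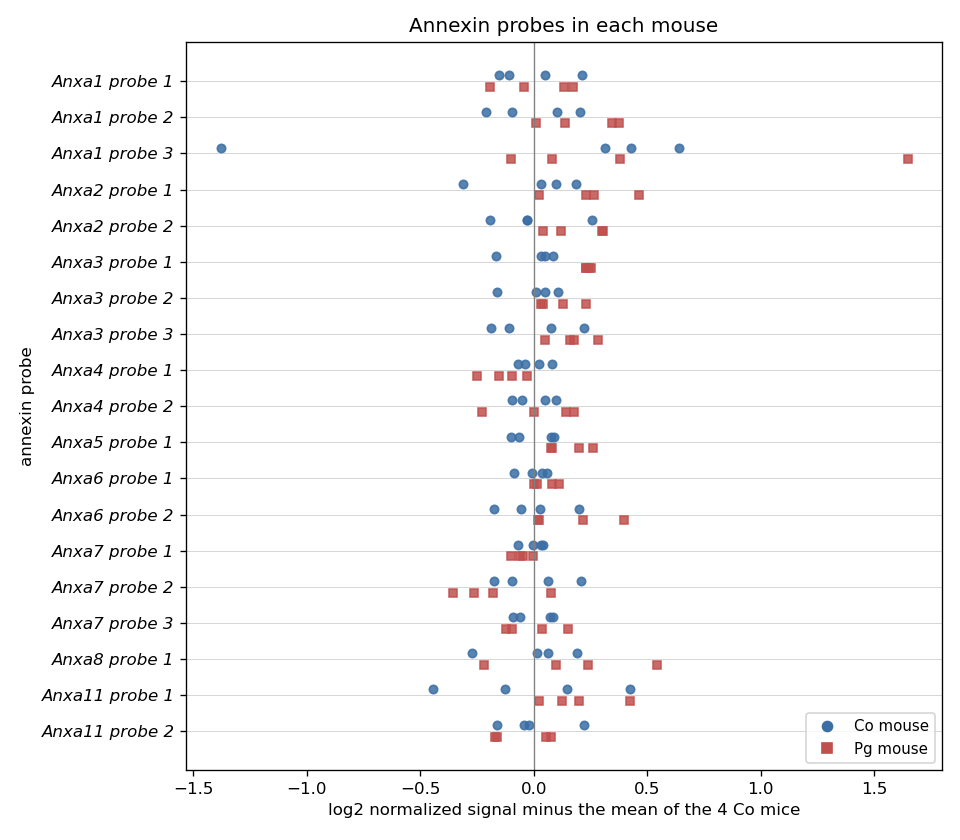
Log2 normalized signal of the 19 annexin probes tested in each mouse, as the difference (x axis) from the mean of the 4 Co mice for that probe (y axis), with circles for Co and squares for Pg mice. The groups overlap in every probe except *Anxa3* probe 1, and *Anxa1* probe 3 has the widest spread.

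*Anxa1* and *Anxa2* are the members tied most closely to inflammation and fibrinolysis. The brightest *Anxa1* probe read 11.79, 11.75, 12.11 and 11.95 in Co mice and 11.85, 12.03, 11.70 and 12.07 in Pg mice (log2 normalized signal). The highest value was that of a Co mouse and the lowest that of a Pg mouse. The fitted difference, Pg minus Co, was 0.02 with a standard error of 0.11 and a 95% interval of -0.24 to 0.28. It was below 0 in 5 of 16 alternatives, with the median signal (-0.003) and without Co 1, Co 2, Pg 2 or Pg 4 (down to -0.03). *Anxa1* probe 2 was 11.35 ± 0.19 (SD, n = 4) in Co and 11.57 ± 0.17 (SD, n = 4) in Pg mice, a difference of 0.22 (standard error 0.12).

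This second *Anxa1* probe is spotted 10 times on each array, which gives the spread between spots of 1 array. The coefficient of variation between its spots on 1 array was 2.89% to 6.59%. Between the 4 array means before normalization it was 16.9% in Co and 11.7% in Pg, which holds the spread of mice, labelling and arrays together. *Anxa1* probe 3, on a cDNA clone, was dim, above background in 3 Co mice and 1 Pg mouse. It read 4.44, 2.42, 4.11 and 4.23 in Co and 5.45, 3.88, 3.70 and 4.18 in Pg mice, and its interval of -0.73 to 1.74 was the widest of the 19. Its difference of 0.50 was 0.04 without Co 2 and 0.12 without Pg 1. *Anxa1* probe 4 was above background in no mouse.

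*Anxa2* probe 1 read 13.75, 13.83, 13.68 and 13.34 in Co mice and 13.91, 14.11, 13.67 and 13.88 in Pg mice. Of the Pg mice, only Pg 3 lay among the Co values. The difference was 0.25, a fold change of 1.19 (interval -0.06 to 0.55), and 0.14 without Co 4. The splice junction probe gave 9.82 ± 0.19 in Co and 10.01 ± 0.13 in Pg mice (SD, n = 4), a difference of 0.19 (standard error 0.11), and 0.13 without Co 4. *Anxa2* probe 3, on an Ensembl transcript, was above background in Pg 3 alone, with a processed intensity of 80.9.

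*Anxa3*, known from neutrophils and from vessel formation, was the member with the most even difference. Its probe 1 read 11.48, 11.44, 11.42 and 11.23 in Co mice and 11.62, 11.63, 11.64 and 11.62 in Pg mice. Every Pg mouse was above every Co mouse, and the Pg values spread by an SD of 0.01 against 0.11 in Co. The difference was 0.24, a fold change of 1.18 (interval 0.08 to 0.39), well under the fold change of a DEG. The other tested *Anxa3* probes also had higher means in Pg mice, by 0.11 (standard error 0.08) for probe 2 and by 0.17 (standard error 0.10) for probe 3, but their groups overlapped. Without Co 4 these values were 0.05 and 0.10, and without Pg 1 that of probe 2 was 0.07. The deposited entry of the transcript shared by probes 1 and 2 differed by 0.23. *Anxa3* probes 4 and 5 were above background in no mouse.

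Markers of the cells that are known to carry *Anxa3* are given beside it. The sum over 10 endothelial markers was 15.16 to 15.44 in Co and 15.51 to 15.60 in Pg mice, without overlap. *Egfl7*, the brightest of the 10 with a mean log2 signal of 14.17, weighs most in this sum. A q under 0.1 was found for 2 of the 10, *Kdr* and *Egfl7* (limma, q = 0.0587 and 0.0430), at log2 differences of 0.57 and 0.42. Over all probes 7.66% had such a q. Of the 10, 7 were higher (all probes 42.3%) and 3 lower in Pg mice, and the groups did not overlap for *Kdr*, *Egfl7* and *Pecam1* (all probes 15.8%). *Pecam1* was among the lower, at -0.20 (limma, q = 0.156), with *Tie1* at -0.14 (limma, q = 0.517) and *Tek* at -0.13 (limma, q = 0.454). None of the 10 reached the fold change of a DEG together with that q. The sum over the 8 neutrophil markers tested was 15.31 to 15.64 in Co and 15.57 to 15.76 in Pg mice, most of it the signal of *Csf3r* (difference 0.24; limma, q = 0.183), and that over 10 macrophage markers was 15.13 to 15.38 and 15.06 to 15.77, most of it the signal of *Itgam* (difference -0.06; limma, q = 0.701). Of the macrophage markers, 8 were higher and 2 lower in Pg mice (all probes 42.3% higher), with a median difference of 0.22 and no DEG. *Lyz2* and *Adgre1* had the greatest differences, 0.60 and 0.50 (limma, q = 0.467 and 0.513). The neutrophil genes *S100a8* and *S100a9* differed by 2.17 and 2.04 with SDs of 1.58 and 1.85 among Pg mice (limma, q = 0.132 and 0.195). *Mpo* and *Mmp8* differed by 0.23 and 0.17 (limma, q = 0.487 and 0.647), and *Ly6g*, *Camp* and *Elane* by 0.09, 0.02 and -0.02 (limma, q = 0.722, 0.924 and 0.959). Of the 8 neutrophil markers, 7 were thus higher and 1 lower in Pg mice, beside 42.3% of all probes higher, and none was a DEG. *Ngp* and *Ltf* were above background in no mouse. In whole tissue, more cells of a type and more RNA per cell cannot be told apart, and the part of these cells in the annexin values was not tested.

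*Anxa5* and *Anxa6* are the members best known for binding phosphatidylserine and for shaping the membrane in muscle and other cells. *Anxa5* read 13.09, 13.24, 13.24 and 13.06 in Co mice and 13.24, 13.42, 13.23 and 13.36 in Pg mice. Pg 1 and Pg 3 lay level with the higher Co mice. The difference was 0.15 (standard error 0.07, interval -0.02 to 0.32). *Anxa6* probe 1 was 14.92 ± 0.06 in Co and 14.97 ± 0.05 in Pg mice (SD, n = 4), and its difference of 0.05 became -0.01 in the authors' deposited values. It was 0.005 with the median signal, 0.01 with 75th percentile scaling, 0.02 without Co 1, 0.03 without Pg 2 and 0.07 without Co 3. *Anxa6* probe 2 differed by 0.16 (standard error 0.11), by 0.08 without Pg 3 and by 0.10 without Co 1.

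*Anxa4*, an annexin of epithelial and secretory cells, and *Anxa7*, which binds the calcium sensor sorcin, had brightest probes that were lower in Pg mice. *Anxa4* probe 1 read 11.69, 11.63, 11.60 and 11.75 in Co mice and 11.42, 11.64, 11.57 and 11.52 in Pg mice. Only Pg 2 lay among the Co values, and the difference was -0.13 (standard error 0.07, interval -0.29 to 0.02). The deposited entry of the transcript that *Anxa4* probes 1 and 2 share differed by -0.03. *Anxa4* probe 2, in the coding part, gave 9.81 ± 0.09 and 9.83 ± 0.18 (SD, n = 4), a difference of 0.02. This was below 0 without Co 2, Pg 2 or Pg 3 (down to -0.03), 0.08 with the median signal and 0.11 without Pg 1. *Anxa4* probe 3 was above background in 2 Co mice and no Pg mouse, and probe 4 in no mouse.

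For *Anxa7* the differences were -0.05 (standard error 0.05), -0.18 (standard error 0.12) and -0.01 (standard error 0.08) by probes 1 to 3. The last was above 0 in 7 of 17 alternatives, up to 0.03, and it was -0.06 without Pg 3. That of probe 2 was -0.11 without Co 1 and -0.27 without Pg 3. *Anxa7* probe 2 read 10.39, 10.25, 10.01 and 10.08 in Co mice and 9.92, 9.83, 10.26 and 10.0001 in Pg mice, where Pg 3 alone was above most Co mice.

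*Anxa8*, found in epidermis and endothelium, read 10.05, 9.59, 9.92 and 9.87 in Co mice and 10.10, 9.95, 10.40 and 9.64 in Pg mice. Its Pg mice spanned both a value near the lowest and the highest of all, and the difference was 0.16 (standard error 0.17), which was 0.04 without Pg 3, 0.07 without Co 2 and 0.29 without Pg 4. *Anxa11*, which binds S100A6 and the calcium sensor encoded by *Pdcd6*, had probes with different signs, at 0.19 (standard error 0.18) and -0.05 (standard error 0.10). The first was 0.05 without Co 4, 0.12 without Pg 3 and 0.34 without Co 1. The second turned to 0.005 with scaling to the 75th percentile, to 0.05 without normalization and to 0.02 without Co 2. It was -0.10 without Co 3 and -0.09 without Pg 3.

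The intervals are given as a measure of the precision of each value. For 17 of the 19 probes the whole 95% interval lay inside a fold change of 1.5 in either direction. The exceptions were the dim *Anxa1* probe 3 and *Anxa11* probe 1, whose interval ran from -0.23 to 0.62. Over the 13 RefSeq probes tested, the intervals reached from -0.29 to 0.55, and the greatest fold change was 1.19.

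**Figure D2:**
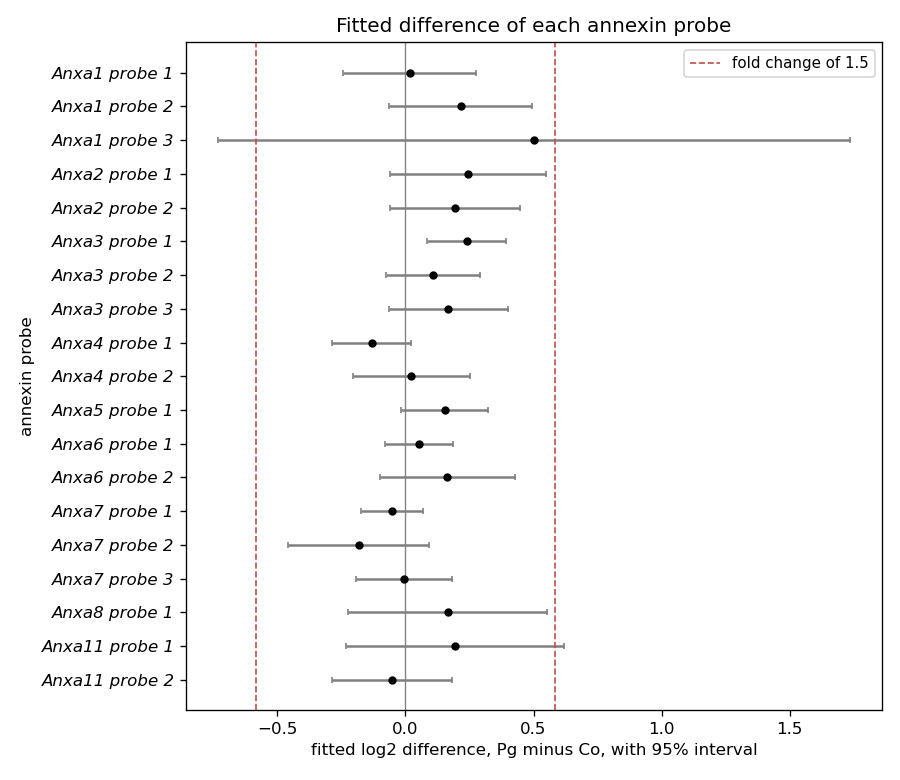
Fitted log2 difference, Pg minus Co (x axis), of the 19 annexin probes (y axis), with points for the limma estimate and bars for its 95% interval. Dashed lines mark a fold change of 1.5, which 17 of the 19 intervals do not reach.

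*Anxa13* was the member with no probe in the comparison. Probe 1 had a processed intensity of 1641 in Co 1, 155 in Co 2, 46.1 in Co 3 and 37.5 in Co 4, and of 15.7, 14.2, 14.4 and 12.7 in the Pg mice. All 4 Co spots and none of the 4 Pg spots were well above background. The Co 1 spot was marked as non-uniform by Feature Extraction and was left out. The remaining 3 Co values averaged 6.13 ± 1.17 on the log2 normalized scale (SD, n = 3), and the Pg values 3.75 ± 0.14 (SD, n = 4). The measured means, Pg minus Co, differed by -2.38, and by -3.51 with the marked spot kept. Both values set Co signals against Pg signals at background.

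As no Pg array measured this probe above background, its Pg level is not known. With the lowest signal that was well above background on each Pg array as the Pg level, *Anxa13* probe 1 was 3.14-fold higher in Co mice. This ratio was 1.97-fold without Co 2 and 4.19-fold without Co 4. It is no strict bound, since a spot not well above background can exceed that lowest signal. *Anxa13* probe 2 did so in Co 4, at 3.71 against 3.67. The log2 difference of probe 1 was -0.89 with normexp background correction and -0.83 with the median signal. With the marked spot left out, 3 arrays were well above background, under the 4 that were required, so the probe did not enter the comparison.

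The second *Anxa13* probe, at chr15:58173026-58173082 on the same transcript, did not repeat this. Its processed intensities were 23.2, 16.3, 10.7 and 12.6 in Co and 15.0, 12.8, 15.5 and 10.9 in Pg mice. It was well above background in Co 1 and Co 2 alone, and the groups overlapped. Its means on the log2 normalized scale were 4.00 ± 0.45 and 3.67 ± 0.28 (SD, n = 4). Both probes had their higher Co values in Co 1 and Co 2.

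**Figure D3:**
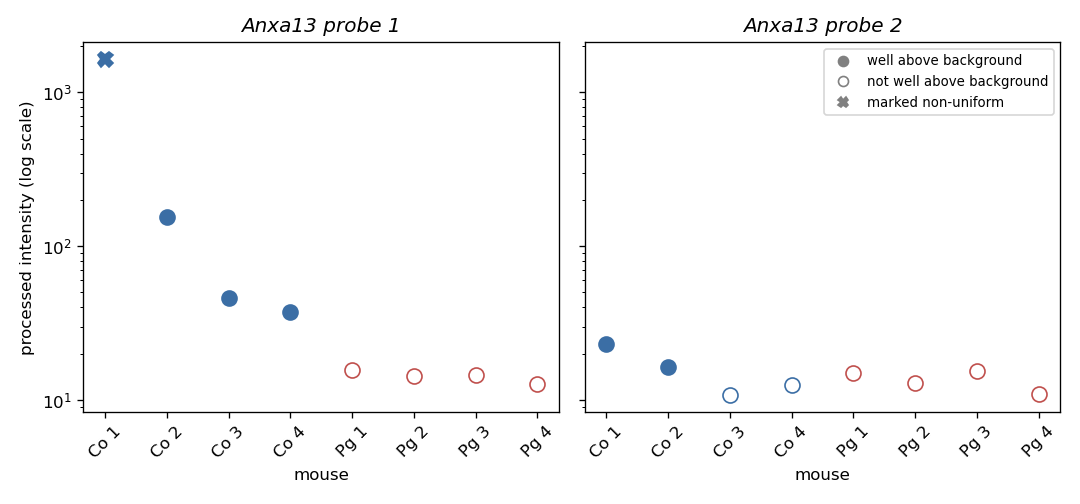
Processed intensity (y axis, log scale) of both *Anxa13* probes in each mouse (x axis). Filled symbols are well above background, open symbols are not, and the cross is the spot marked non-uniform. Probe 1 runs from 37.5 to 1641 in Co mice and lies at 12.7 to 15.7 in Pg mice, whereas probe 2 lies between 10.7 and 23.2 in both groups.

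The pixels of the probe 1 spot were uneven where it was bright. In Co 1 its mean pixel signal was 1741 with an SD of 1208, a coefficient of variation of 69.4%, against a median of 16.8% among 1666 spots whose mean signal was within 20% of it. In Co 2 the coefficient was 54.7%, higher than in 99.7% of 3146 spots of like signal, and in Co 3 it was 39.8%, higher than in 98.1% of 5572. In Co 4 and the Pg mice it was 18.1% to 27.0%, beside medians of 22.7% to 23.3% of like spots. This was higher than in 6.91% of like spots in Pg 2, the least, and 86.1% in Pg 4, the most.

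The spots around it also read differently between the groups. Probe 1 lies in row 383 of 384 of the grid. Of 33 spots of other genes within 3 rows and columns, 28, 26, 32 and 25 were well above background in the Co mice and 20, 18, 17 and 20 in the Pg mice. Of these, 12 (36.4%) were above background in at least 1 Co mouse and no Pg mouse, and none the other way round. The share was 7.53% over all 59305 spots, 15.4% over the last 32 rows and 2.32% over the first 32. Among the 36 annexin spots, that of *Anxa13* probe 1 had the highest share, and *Anxa13* probe 2, in row 225, had 6.67%. The part of the pixel spread and of the place on the array in the *Anxa13* values was not tested.

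**Figure D4:**
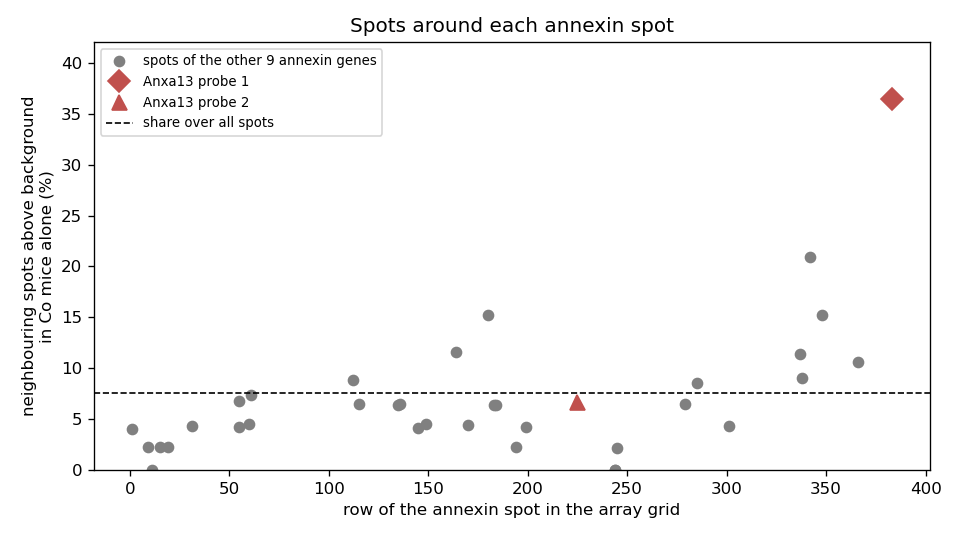
Share of neighbouring spots of other genes that were well above background in Co mice alone (y axis, percent) against the grid row of each of the 36 annexin spots (x axis), with the share over all spots (7.53%) as a dashed line. *Anxa13* probe 1 lies at 36.4% in row 383 and *Anxa13* probe 2 at 6.67% in row 225.

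Markers of gut and other epithelia, where *Anxa13* is known, were detected in part. Of 12 epithelial markers, 4 were above background on no array (*Cdh1*, *Krt8*, *Vil1* and *Cdx2*), and *Epcam*, *Cdh17* and *Cldn4* were above it on 1 each. *Cldn7* and *Krt5* were above it on all 8, *Krt19* on 7, *Krt18* on 6 and *Krt14* on 5. The sum over the 5 that were tested was 8.12 to 8.43 in Co and 8.16 to 8.48 in Pg mice, a sum set mainly by *Cldn7* (mean log2 signal 7.47, difference -0.03; limma, q = 0.897), with no DEG among them. Of the 5, 2 were higher and 3 lower in Pg mice (all probes 42.3% higher). *Krt18* differed by 0.55 and *Krt14* by -0.48 (limma, q = 0.502 and 0.110). The tested genes most like *Anxa13* probe 1 over the 7 arrays with a value were *Synj2*, *Gatc* and *C030006K11Rik*, with Pearson's r of 0.99 each out of 33815 probes. Such values rest mainly on 1 high array, Co 2.

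Genes that work with annexins were read from the same fit. Of 45 in 6 lists, 42 were tested. In limma none was a DEG (all probes 1.59%), 1 had a q under 0.1 (all probes 7.66%) and 8 had an unadjusted p under 0.05 (all probes 22.7%). The median difference of the 42 was 0.04, beside -0.04 over all probes, with 27 higher and 15 lower in Pg mice (all probes 42.3% higher). Co and Pg mice were without overlap in 3 of these genes, *Gca*, *Plgrkt* and *Capn1* (all probes 15.8%).

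Among the 7 S100 partners, all tested, none was a DEG (all probes 1.59%) and 1 had an unadjusted p under 0.05 (all probes 22.7%). *S100a10*, the partner of ANXA2, read 12.02, 12.14, 12.17 and 11.96 in Co mice and 11.97, 12.03, 11.75 and 12.05 in Pg mice. Its difference of -0.12 (standard error 0.08; limma, q = 0.424) had the opposite sign to both tested *Anxa2* probes. *S100a11*, the partner of ANXA1, differed by -0.16 (standard error 0.13; limma, q = 0.504). Without Pg 3 these values were -0.06 and -0.08, and without Co 3 that of *S100a11* was -0.09. The greatest difference of this list was that of *S100a4*, which encodes a calcium sensor of motile cells, at 0.31 (standard error 0.10; limma, q = 0.136).

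Among the 5 EF-hand and scaffold partners, *Gca*, which encodes grancalcin, a calcium sensor of neutrophils and macrophages, read 6.77, 7.09, 6.999 and 7.01 in Co mice and 6.58, 6.08, 6.46 and 6.57 in Pg mice. All Pg mice were below all Co mice, and *Gca* was lower by a log2 difference of -0.54 (standard error 0.13; limma, q = 0.0721), under the fold change of a DEG. Without Co 1 the difference was -0.61 (limma, q = 0.0975) and counted as a DEG, whereas it was -0.31 with normexp, -0.32 with the median signal and -0.37 in the authors' deposited values. *Ahnak*, the scaffold bound by the ANXA2 and S100A10 complex, was next, at -0.20 (standard error 0.07; limma, q = 0.136).

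Of the formyl peptide receptors, through which ANXA1 acts, *Fpr1* was above background on no array, *Fpr3* on 1 and *Fpr2* on all 8. *Fpr2* read 7.86, 7.32, 7.54 and 7.64 in Co mice and 7.80, 7.24, 7.20 and 7.19 in Pg mice. Pg 1 lay among the highest values, and the difference was -0.23 (standard error 0.17; limma, q = 0.450). It was -0.38 without Pg 1 and -0.14 without Co 1, and -0.11 with normexp.

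In the remaining lists, with no DEG in limma, 1 of 6 genes of plasminogen activation, 3 of 12 of plasma membrane repair and 1 of 11 of phosphatidylserine exposure and recognition had an unadjusted p under 0.05, beside 22.7% of all probes. They were *Plgrkt*, *Dysf* and *Capns1*, with differences of 0.13, 0.17 and 0.18, and *Capn1* and *Mertk*, with -0.23 and -0.25 (limma, q = 0.137 to 0.214). The gene with the greatest difference of each list was another. *Plaur*, the urokinase receptor, differed by 0.29 (standard error 0.26; limma, q = 0.544), and by 0.15 without Pg 1 to 0.52 without Pg 3. *Myof*, which encodes the repair protein myoferlin, differed by 0.31 (standard error 0.15; limma, q = 0.261). *Axl*, a receptor for dying cells, differed by 0.28 (standard error 0.16; limma, q = 0.319), but by 0.15 without Pg 2 and by -0.16 in the authors' deposited values.

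**Figure D5:**
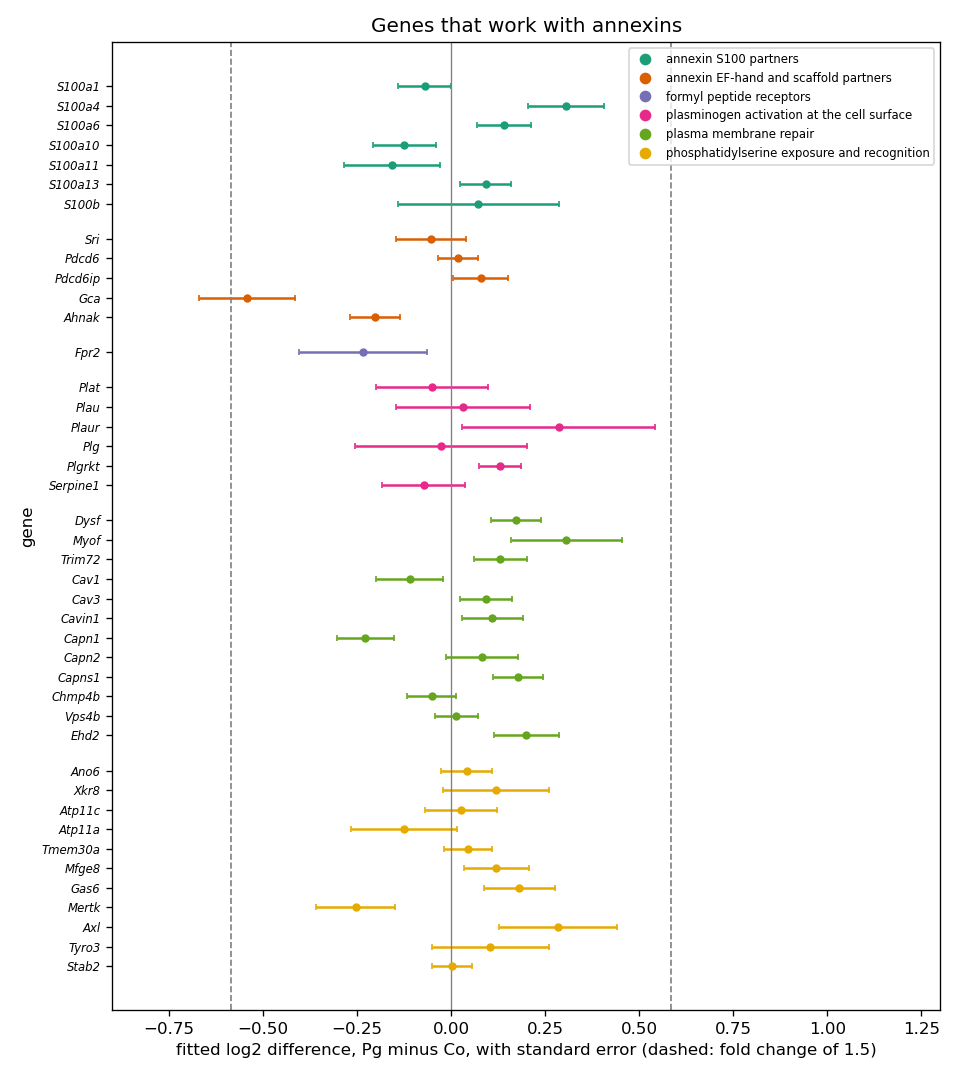
Fitted log2 difference, Pg minus Co (x axis), with its standard error as bars, of 42 genes (y axis) that work with annexins, coloured by list. Dashed lines mark a fold change of 1.5. Every estimate lies inside them, with *Gca* nearest to the line at -0.54.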

How the data were processed

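Per the labels and methods, RNA of 8 mice was hybridized to Agilent one-color arrays, 1 array per mouse. For each array the authors deposited the scanner output (Feature Extraction 11.0.1.1), with processed, mean, median and background intensity and flags for each spot. They also deposited a table of quantile-normalized log2 values in 28067 entries, 1 per accession, used here as an alternative. For 4968 accessions with several probes, its levels lay nearer to the mean of these probes (median gap 0.0906) than to the named probe (0.888). Its fold changes, p-values and GO text were not used.

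Spots of one probe were averaged by their processed intensity, leaving out spots marked as population outliers (90 to 150 per array) or non-uniform (4 to 50). Values were quantile-normalized between arrays in R 4.3.3, and log2 was taken after any value under 1 had been set to 1. Probes well above background on at least 4 arrays (33815 of 56605) were fitted in limma 3.58.1 (lmFit, then eBayes). Its p-values are two-sided and were adjusted over all of these probes by the method of Benjamini and Hochberg. Intervals are limma's 95% intervals. Precision is limited by the number of arrays. Each array is of a separate mouse by the labels' numbering, so the spread includes both mice and arrays. Differences between the levels of different probes were not tested.

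The annexin genes and all gene lists were chosen with earlier results of these data known. Lists were read with 1 probe a gene, that with the highest mean. Of the 56605 probes, 32994 were named through their accession in the mouse reference and the others by the array's own names. Every annexin probe, *S100a10*, *S100a11*, *Fpr1*, *Fpr2* and, in each partner list, the DEGs or else the gene with the greatest absolute difference were named. The cell type markers, *Ahnak*, *Fpr3*, *Plgrkt*, *Dysf*, *Capn1*, *Capns1* and *Mertk* were named after their values were seen. Same-numbered Co and Pg arrays had correlations of their deviations from the group mean of 0.07, -0.03, -0.07 and 0.20. Differently numbered arrays had -0.16 to 0.13. With 4 mice a group this cannot show whether the numbers pair the mice, and the main fit does not pair them. Alternatives were other background corrections, normalizations and filters, the deposited table, each array left out, the replicate number as a block and, added after seeing the data, non-uniform spots kept.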

Additional observations from a re-analysis of the deposited data

Results flagged for a closer look

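In 38 groups of 4 mice (19 annexin probes in Co and in Pg), 1 sample lay far from the others of its group by Dixon's test. *Anxa1* probe 3 read 2.42 in Co 2, against 4.11 to 4.44 in the other Co mice. Chance alone gives about 1 such group in 20. This is the dimmest probe that was tested, and Co 2 was the Co mouse in which it was not above background.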

How the results depend on the processing

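No annexin probe was a DEG in limma under any of the alternatives run. Between 6 and 7 annexin genes were higher in Pg mice, of 9 or, where *Anxa13* entered, 10. The number of annexin probes whose groups did not overlap was 1. It was 2 with normexp (*Anxa3* probe 1, *Anxa4* probe 1), the median signal and 75th percentile scaling. It was also 2 in the authors' deposited values and with non-uniform spots kept, and 3 without a filter. Leaving out each array gave 1 to 3. *Anxa13* probe 1 was among these probes with non-uniform spots kept and without a filter. In the deposited values it was the single entry of the transcript that both *Anxa13* probes share. The share of all probes without overlap was 9.45% to 16.6% over these settings and 19.5% to 22.9% with an array left out, beside 15.8%. The *Anxa13* difference of -2.38 was -0.89 with normexp, which adds an offset of 50, and -0.83 when the median signal was used without subtracting background. It was -1.71 without Co 2.

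The number of DEGs on the whole array moved far more. From 537 (109 higher, 428 lower in Pg mice) it went to 98 with normexp (69 higher, 29 lower), 111 from the median signal (77 and 34), 269 after 75th percentile scaling (134 and 135), 30 without normalization (21 and 9), 316 with a filter on all 8 arrays (109 and 207) and 106 in the authors' deposited values (60 and 46). Leaving out each array gave 3 (without Co 3) to 689 (without Pg 3), with 22 without Co 2. The replicate block gave 0 DEGs on the whole array, and an *Anxa13* difference of -2.39. No partner gene was a DEG, except *Gca* when Co 1 was left out, so that leaving out each array gave 0 to 1. The causes were not tested. Signal near background limits *Anxa13* and the dim probes.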

Other observations

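DEGs were not spread evenly over the rows of the array grid. In bands of 32 rows with 2737 to 2850 tested probes each (those spotted once), those higher in Pg mice numbered 32 in rows 1 to 32 and 2 in rows 353 to 384, and those lower in Pg mice numbered 24 and 46, with 63 in rows 321 to 352. The median difference was 0.02 in the first band and -0.10 in rows 321 to 352. Of the 36 annexin spots, that of *Anxa13* probe 1 has the highest row number.

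*Anxa9* and *Anxa10* were near background throughout. *Anxa9* probe 1 was above background on 1 array, and their other probes on none.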
